A study of Homo sapiens with 12 samples.

Results

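The genes described here encode the coats, the coat GTPases and the main cargo receptors of the vesicles that run between the endoplasmic reticulum (ER) and the Golgi apparatus. The set is a list of 38 gene symbols, chosen by function and not by their values, though earlier results of these data were known. All 38 occur once among the 38516 genes of the deposited expression table. Of these, 37 reached the level needed for testing, an RPKM (reads scaled by the length of a gene's exons and by the library's gene-assigned reads) of at least 0.5 in at least 3 libraries. The member left out of the tests is COPZ2, described with the coatomer.

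RNA sequencing covered 12 libraries of KYSE150 and KYSE510, 2 established human lines of esophageal squamous cell carcinoma grown in RPMI-1640 with 10% fetal bovine serum. Each line had 3 libraries of control cells and 3 of cells in which HCP5, a long non-coding RNA gene, was silenced. All library titles, of control and silenced cells alike, start with sh, left unexplained in the labels. The labels give no clone, reagent sequence or time after silencing. Nothing in the labels says that replicates came from separate cultures, so p-values measure the spread between these libraries, which may be technical.

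Newly made secretory and membrane proteins leave the ER in vesicles coated by COPII. The GTPase SAR1, switched on by PREB (SEC12), recruits the inner SEC23 and SEC24 layer, in which SEC24 binds cargo, and then the outer SEC13 and SEC31 cage, at sites organised by SEC16A. COPI vesicles run back from the Golgi to the ER. Their coat, coatomer, is a complex of alpha, beta, beta prime, gamma, delta, epsilon and zeta subunits that ARF GTPases bring to the membrane. Receptors such as the KDEL receptors, LMAN1 and SURF4 load selected cargo into these carriers. Secretory cells raise many of these genes through ER stress factors such as XBP1 and ATF6, whose sites contain the letters CCACG or ACGTG.

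Promoter sequence was compared over 33 members with a RefSeq window on GRCh38.p14, searching both strands of the 250 bases before the RefSeq start. Exons of the deposited gene models can begin before that start, so a match may lie inside them. The 5 windows printed here are examples picked from the 12 members that hold a match to CCACGT. Others of the 12, such as SURF4, ARF1 and SEC16A, are not printed. ARCN1 (delta coatomer) and SEC24C differed most between the lines in their groups, and SEC24A and SAR1A are COPII genes whose silenced and control values did not overlap in KYSE150. COPG1, a gamma coatomer subunit, is shown because its match lies closest to its start. Each is written 5′ to 3′ on the strand of its gene, and capitals mark CCACGT or its reverse complement ACGTGG. The stretches are chr11:118572289-118572408 on the plus strand for ARCN1, chr3:129249486-129249605 on the plus strand for COPG1, and chr5:134648665-134648784 on the plus strand for SEC24A. SEC24C is shown at chr10:73744252-73744371 on the plus strand and SAR1A at chr10:70170515-70170734 on the minus strand. In the deposited gene models, the last 19 bases shown for ARCN1, which hold its match, lie in exons. So do 9 bases shown for SAR1A, away from its match.
ARCN1: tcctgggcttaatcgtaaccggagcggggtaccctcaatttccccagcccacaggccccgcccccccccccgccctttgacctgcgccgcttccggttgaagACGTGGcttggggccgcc
COPG1: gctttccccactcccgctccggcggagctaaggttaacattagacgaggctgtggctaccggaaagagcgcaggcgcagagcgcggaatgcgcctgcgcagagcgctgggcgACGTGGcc
SEC24A: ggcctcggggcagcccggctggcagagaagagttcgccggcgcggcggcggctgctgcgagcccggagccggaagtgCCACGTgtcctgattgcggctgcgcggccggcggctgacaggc
SEC24C: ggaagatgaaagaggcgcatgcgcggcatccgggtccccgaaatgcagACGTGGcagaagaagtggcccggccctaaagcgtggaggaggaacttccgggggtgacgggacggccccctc
SAR1A: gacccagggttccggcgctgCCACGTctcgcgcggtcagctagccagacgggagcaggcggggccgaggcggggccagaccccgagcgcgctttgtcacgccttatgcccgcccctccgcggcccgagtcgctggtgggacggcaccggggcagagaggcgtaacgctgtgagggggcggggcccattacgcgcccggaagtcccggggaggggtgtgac
The joined motif CCACGT holds both CCACG and, on the other strand, ACGTG, so its matches are also counted under each of those. It was picked after the matches were seen. It occurred in 12 of 33 members (36.4%), against 8.47% of all 27305 promoter windows and 11.1% of the 9560 windows of tested genes. The 12 are the coatomer genes COPG1, COPB1, COPB2 and ARCN1, the GTPase gene ARF1, the COPII genes SEC24A, SEC24C, SEC31A, SEC16A and SAR1A, and the receptor genes SURF4 and KDELR3. ACGTG alone occurred in 15 of 33 members (45.5%) against 18.7% of all windows and 23.9% of tested ones. CCACG occurred in 24 (72.7%) against 33.3% and 44.5%. The palindrome CACGTG, an E-box bound by MYC-type factors, contains ACGTG and was found in 2 members, SEC24A and SEC16A (6.06%, against 6.49% and 9.10%). CCAAT occurred in 12 (36.4%), against 33.0% and 35.4%. The members' windows had a median GC content of 66.8%, against 58.0% for all windows and 64.8% for tested ones. These shares describe letters in a window and were not tested.

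Depth ran from 20035025 to 28202422 assigned reads per library, and in KYSE150 every silenced library was deeper than every control. The tested members rested on 21 to 8369 reads per library, and KDELR3 was the single one below 100. HCP5 itself had an RPKM of 0.779, 0.745 and 0.786 in KYSE150 control libraries and 0.315, 0.418 and 0.579 in silenced ones. In KYSE510 it had 0.914, 1.85 and 1.40, and 0.505, 0.951 and 0.948. On the log2(RPKM + 0.5) scale the HCP5 changes were -0.45 (adjusted p = 0.267, limma) and -0.53 (adjusted p = 0.646). The added 0.5 is not small beside these RPKM values, so both figures understate the fall in RPKM. Control means were 0.770 (KYSE150) and 1.39 (KYSE510), and silenced means were 0.437 and 0.801. The KYSE150 sets do not overlap, whereas KYSE510 silenced values of 0.951 and 0.948 lay above the control value of 0.914. Squamous markers such as KRT5 and TP63 were present in both lines, whereas SOX2 stayed between 0.0590 and 0.252 in KYSE150. Of 10 fibroblast, leukocyte and endothelial markers, 10 stayed below 1 RPKM in KYSE150 and 9 in KYSE510, where CDH5 reached 2.03.

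The coat genes were abundant in both lines. Their summed RPKM was 722, 703 and 803 in KYSE150 control libraries, 784, 843 and 826 in silenced ones, 567, 627 and 643 in KYSE510 controls and 553, 548 and 590 in silenced ones. All 6 KYSE510 libraries thus lay below all 6 KYSE150 libraries. In bulk RNA, fewer cells with a transcript and less transcript per cell cannot be told apart. The highest member in KYSE150 controls was LMAN2 (VIP36), a lectin that cycles between the ER and Golgi, at 115 ± 7.35 RPKM (SD, n = 3). KYSE510 controls were led by ARF1, the main COPI GTPase, at 67.7 ± 5.56. Among COPII genes SEC24D was lowest in all 4 groups, with means of 0.910 to 2.04.

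The first comparison asked how the coat genes differ between the lines before silencing. Control KYSE510 and control KYSE150 differed in 25 of 37 members (67.6%) at an adjusted p under 0.05, against 62.0% of all tested genes. Of these, 6 were higher in KYSE510 and 19 lower, where the shares over all genes were 28.3% and 33.7%. The members' median log2 difference was -0.37 (all genes -0.07). The related early secretory genes were a fixed list of 58 others of the pathway, including tethers, SNAREs, receptors, GTPases and ER stress factors. Among the 55 that were tested, 40 (72.7%) were called, 17 higher and 23 lower, with a median of -0.05. A difference of at least 2-fold on the log2(RPKM + 0.5) scale was found for 6 members, ARCN1, LMAN2, COPG2, SEC24C, ARF1 and KDELR1.

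**Figure D1:**
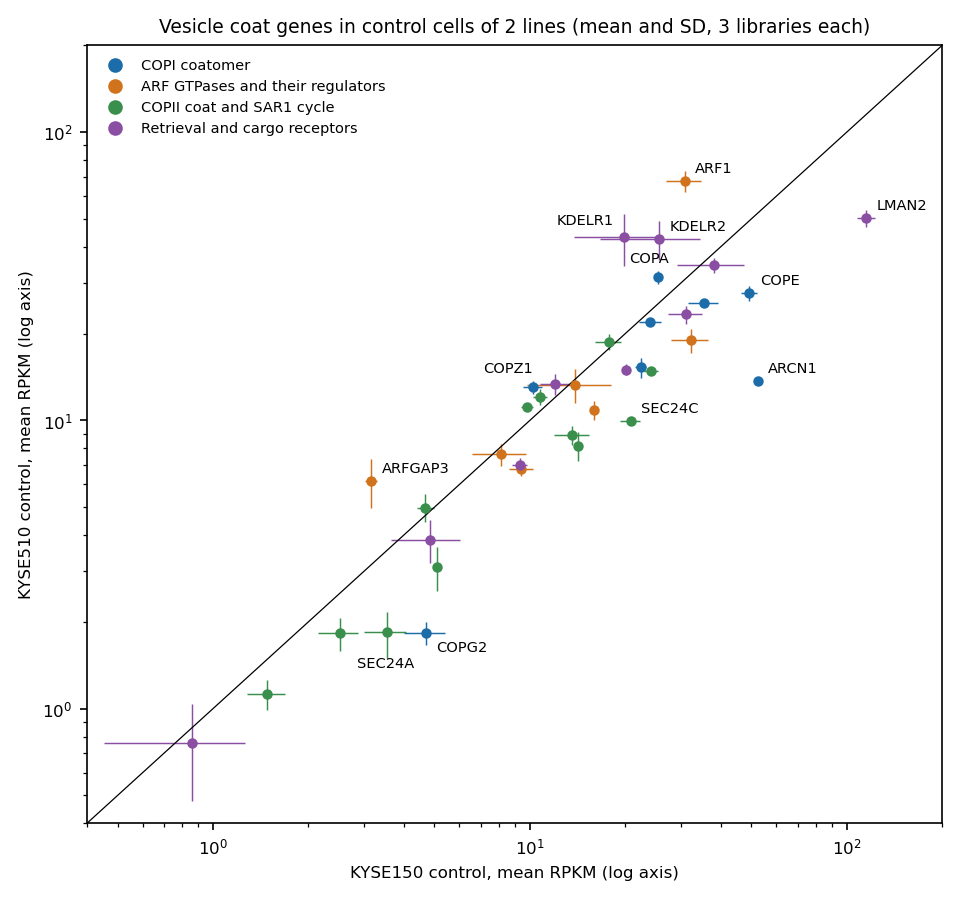
Mean RPKM of the 37 tested coat genes in control KYSE150 (x axis, log scale) and control KYSE510 (y axis, log scale), coloured by role. Bars are SD over 3 libraries, and the line is that of equality. Labels mark the 6 members with the largest called differences in each direction. ARCN1 and COPG2 lie farthest below the line and ARF1 and KDELR1 farthest above it.

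Coatomer genes differed in 7 of 8 tested members (87.5%), against 62.0% of all genes, with 5 lower and 2 higher in KYSE510. ARCN1 (chr11:118572390-118603033, plus strand, GRCh38) had 52.1, 53.5 and 51.3 RPKM in KYSE150 controls and 13.3, 13.9 and 14.0 in KYSE510 controls. These groups lie far apart, with a log2 difference of -1.89 (SE 0.06, adjusted p = 5.0e-10). COPG2, the minor gamma subunit gene, had 4.31, 4.32 and 5.50 against 1.64, 1.97 and 1.88, a difference of -1.16 (SE 0.16, adjusted p = 6.3e-05). COPE, the epsilon subunit, had 49.3 ± 3.02 RPKM in KYSE150 and 27.6 ± 1.57 in KYSE510 (log2 -0.82, adjusted p = 2.3e-06). COPZ1 (zeta) and COPA (alpha) went the other way, with log2 differences of 0.34 and 0.29. COPA had 24.8, 25.8 and 25.8 RPKM in KYSE150 and 29.5, 32.8 and 31.7 in KYSE510, with no overlap. COPB2, which encodes the beta prime subunit, was the coatomer gene not called (24.0 ± 1.85 and 21.9 ± 0.275, adjusted p = 0.130). COPZ2, the second zeta gene, had 1 read in 1 KYSE510 control library and 0 in the other 11, so COPZ1 made up at least 99.8% of the zeta pair in every library.

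The order of the coatomer genes by level was not the same in the lines. Within the summed RPKM of 7 subunit genes, ARCN1 took 23.9 ± 0.351% in KYSE150 controls, where it ranked 1, and 9.23 ± 0.113% in KYSE510 controls, where it ranked 6. COPA took 11.6 ± 0.202% in KYSE150, where it ranked 4, and 21.1 ± 0.752% in KYSE510, where it ranked 1. COPG1 was close in both, at 16.1 ± 1.40% and 17.2 ± 0.271%. Silencing left these orders nearly as they were: ARCN1 held 23.8 ± 1.16% in silenced KYSE150 and 9.59 ± 0.458% in silenced KYSE510. COPB1 and COPB2, with close shares in KYSE150, exchanged ranks 5 and 6.

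**Figure D2:**
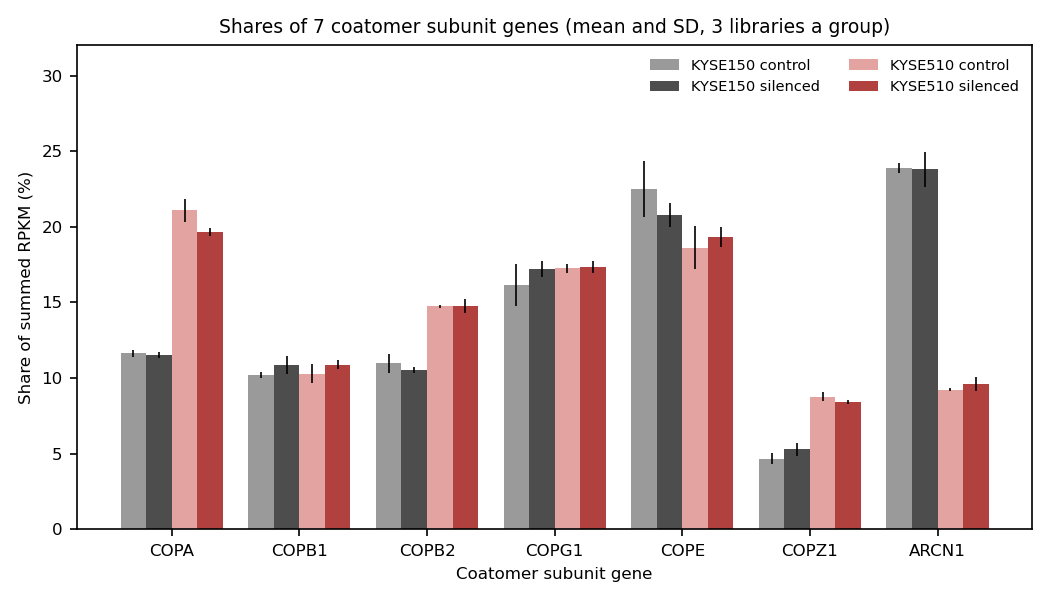
Share of each of 7 coatomer subunit genes in their summed RPKM (y axis, percent) in the 4 groups; bars are means and lines SD over 3 libraries. ARCN1 leads in both KYSE150 groups and COPA in both KYSE510 groups, while control and silenced bars of a line are close.

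ARF genes and their regulators differed in 5 of 7 members (71.4%), against 62.0% of all genes. ARF1 had 28.9, 28.3 and 35.4 RPKM in KYSE150 and 62.3, 67.4 and 73.4 in KYSE510 controls (log2 1.13, SE 0.10, adjusted p = 2.8e-06). ARF4 was lower in KYSE510, at 19.0 ± 1.77 against 32.2 ± 4.34 (log2 -0.75, adjusted p = 0.0002), so the most abundant ARF gene of the 3 listed was ARF1 in KYSE510, while in KYSE150 ARF1 and ARF4 were within their spread. The related ARF5 did not differ beyond its spread (13.9 ± 4.10 and 13.3 ± 1.82), and ARF4 made up 70.3 ± 3.37% of the ARF4 and ARF5 pair in KYSE150 against 58.8 ± 1.09% in KYSE510. ARFGAP3, a GTPase-activating protein that turns ARF1 off on COPI membranes, was higher in KYSE510 (3.16 ± 0.131 and 6.15 ± 1.19, log2 0.85, adjusted p = 0.0003). ARFGAP2, of the same function, was lower (log2 -0.53), and so was GBF1, the exchange factor that activates ARF1 at the early Golgi (log2 -0.45).

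Of 12 COPII genes, 7 (58.3%) were called between control lines, against 62.0% of all genes. All 7 were lower in KYSE510, where 33.7% of all genes were called lower. With median centring 9 (75%) were called, 8 lower and SEC16A higher, against 11296 of all 17823 genes. With quantile normalization it was 10 (83.3%), 8 lower and SEC16A and SEC31A higher, against 11489 of 17823. SEC24C had 20.0, 19.9 and 22.5 RPKM in KYSE150 and 10.1, 9.86 and 9.77 in KYSE510 (log2 -1.03, SE 0.08, adjusted p = 4.3e-07). SEC24A, another cargo-binding subunit, had 3.60, 2.96 and 4.04 against 1.52, 1.80 and 2.19 (log2 -0.79, adjusted p = 0.0006), while its close relative SEC24B did not differ (4.68 ± 0.290 and 4.98 ± 0.553, adjusted p = 0.516). SEC24A therefore made up 42.8 ± 2.46% of this pair in KYSE150 controls and 26.8 ± 1.54% in KYSE510 controls. SAR1A was lower in KYSE510 by -0.76 (adjusted p = 4.7e-05), SEC13 by -0.68, SEC23A by -0.65, SEC23B by -0.59 and SAR1B by -0.37. The call of SAR1B held in 9 of 12 fits that left out 1 library. SEC31A, the partner of SEC13 in the outer cage, had a difference of 0.18 (adjusted p = 0.0681), SEC16A of 0.16 (adjusted p = 0.0748) and PREB of 0.08 (adjusted p = 0.457). Of the SEC24C exon length, 42.9% also belongs to an opposite-strand gene model (RP11-574K11.32), and the use of strand in counting is not given in the sources used here, so reads of the pair may be shared.

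Among receptors, LMAN2 had 115, 108 and 123 RPKM in KYSE150 and 46.5, 50.9 and 53.4 in KYSE510 (log2 -1.19, SE 0.07, adjusted p = 1.1e-07). KDEL receptors return ER-resident proteins that carry the KDEL tail. KDELR1 had 16.5, 16.1 and 26.7 RPKM in KYSE150 controls and 33.0, 47.7 and 48.8 in KYSE510 controls, without overlap (log2 1.12, SE 0.22, adjusted p = 0.001). KDELR2 had 24.4, 17.3 and 34.9 against 35.2, 47.4 and 45.4, a log2 difference of 0.77 (SE 0.21, adjusted p = 0.0070). KDELR3, the low-abundance receptor, did not differ (0.859 ± 0.405 and 0.757 ± 0.278, adjusted p = 0.753). MCFD2, the partner of the lectin LMAN1 in exporting coagulation factors, was lower in KYSE510 (log2 -0.41), while LMAN1 itself was not called (12.02 ± 1.27 and 13.4 ± 1.15, adjusted p = 0.225). ERGIC2 and ERGIC3, which form a shuttle complex with ERGIC1, were lower by -0.39 and -0.40. ERGIC1 and SURF4 were not called.

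The second comparison asked what HCP5 silencing did to the coat genes in KYSE150. No member passed an adjusted p of 0.05 in limma, against 0.499% of all genes tested, and 9 of 37 had an unadjusted p under 0.05, all with a positive change. Of the 17823 genes tested, 3224 had an unadjusted p under 0.05. With median centring it was 4 of 37 members, beside 2980 of the 17823 genes. A limma-voom fit of the recovered reads also called 0 members. With libraries paired by replicate number (a replicate block), 1 member was called, SAR1A, against 6.70% of all genes. The voom fit with that block called 12 (32.4%), all positive, against 17.8% of all genes.

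In direction, 33 of 37 members had a positive log2 change in KYSE150, against 66.1% of all genes, with a median of 0.16 (all genes 0.08). Centring every library on its median, which shifted the median change of all genes by -0.13, left 22 of 37 positive, against 41.1% of all genes, and a median of 0.03 (all genes -0.05). The 7 ARF genes and regulators had a median change of 0.23, which was 0.10 with centring. The 12 COPII genes had 0.19, and 0.06 with centring. Coatomer genes had 0.10 and receptors 0.13. These medians became -0.03 and -0.00 with centring, and 0.06 and 0.10 with quantile normalization, so their direction depended on the scaling. Quantile normalization left 28 of 37 members positive, against 49.3% of all genes. Values of the 3 silenced libraries lay entirely above the 3 controls in 8 members (21.6%), against 13.7% of all genes. These were SAR1A, SAR1B, SEC24A, SEC24B, SEC16A, ARFGAP3, LMAN2 and MCFD2. They lay entirely below in 0 members, against 5.47%. In 24 members (64.9%) the silenced library was higher in all 3 pairs, against 37.4% of all genes.

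**Figure D3:**
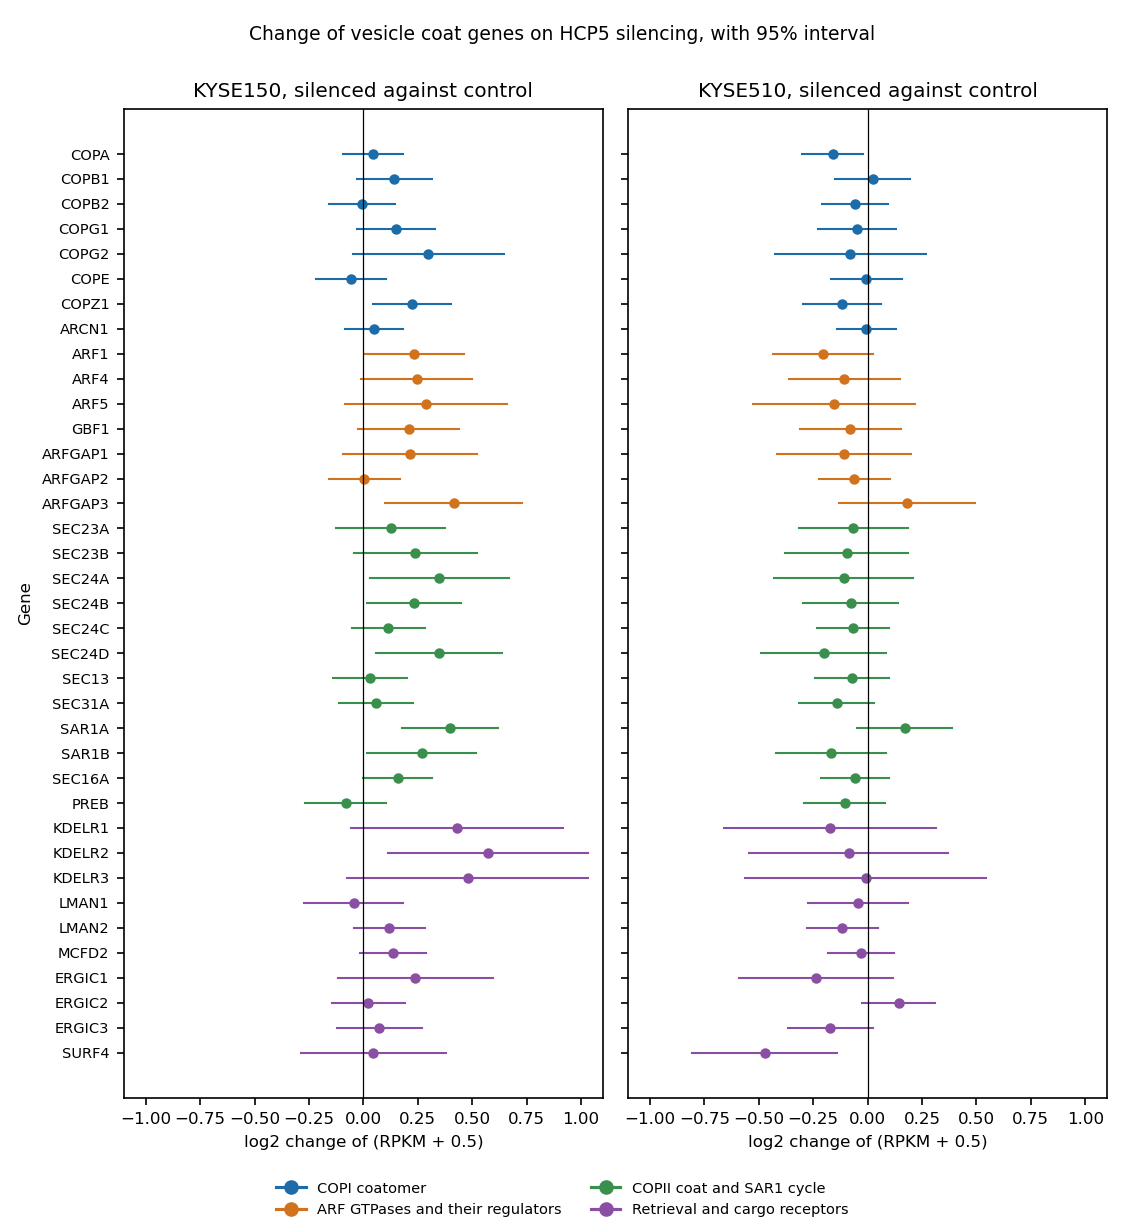
Log2 change of RPKM + 0.5 (x axis) for each of 37 tested coat genes (y axis, coloured by role) in silenced against control cells, with 95% limma intervals, KYSE150 at left and KYSE510 at right. Most points lie right of 0 in KYSE150 (33 of 37) and left of 0 in KYSE510 (33 of 37), and most intervals cross 0.

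SAR1A (chr10:70147289-70170523, minus strand, GRCh38) encodes one of a pair of GTPases that start COPII assembly. KYSE150 controls had 14.4, 14.0 and 14.0 RPKM and the silenced libraries 18.8, 18.5 and 19.1. The 2 sets are tight and do not overlap. The log2 change was 0.40 (SE 0.10), with an adjusted p of 0.102 in limma, 0.0195 with the replicate block and 0.0555 with the block and median centring together. The exact permutation p, two-sided over the line's 6 libraries, was 0.1, the smallest such a test can give. In KYSE510 SAR1A had 7.06, 8.70 and 8.75 against 8.07, 9.33 and 10.4, higher in 3 of 3 pairs but with overlap (log2 0.17, SE 0.10, adjusted p = 0.884). Averaged over lines the change was 0.28 (SE 0.07, adjusted p = 0.128, and 0.0183 with the block). In that average 0 members were called, against 0.539% of all genes, and 2 of 37 had an unadjusted p under 0.05, beside 2043 of the 17823 genes tested. With the block 1 was called (SAR1A), against 2.74%, and the voom fit without a block called 0. Voom with the block called SAR1A and ARFGAP3, against 6.83%. The remaining members named by their rank in the average were ARFGAP3 (0.30, adjusted p = 0.276), SURF4 (-0.21, 0.495), KDELR2 (0.24, 0.597) and PREB (-0.09, 0.625). SURF4 was -0.13 without KYSE150 control replicate 3, KDELR2 0.12 to 0.37 with 1 library left out, and PREB -0.15 with median centring.

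ARFGAP3 had 3.26, 3.20 and 3.01 RPKM in KYSE150 controls and 3.80, 5.32 and 4.12 in silenced libraries, without overlap but short of the threshold (log2 0.42, SE 0.14, adjusted p = 0.188). SEC24D, a SEC24 subunit of low level, had 1.46, 1.30 and 1.70 and then 1.62, 2.39 and 2.11 (log2 0.35, SE 0.13, adjusted p = 0.216, and a log2 change of 0.22 with median centring). COPZ1 had 9.66, 9.99 and 11.02 and then 10.8, 12.9 and 12.4 (log2 0.22, SE 0.08, adjusted p = 0.203, and a log2 change of 0.09 with median centring). These last sets overlap.

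The 3 KDEL receptor genes had the largest log2 changes in KYSE150, and also the widest intervals. KDELR2 had 24.4, 17.3 and 34.9 RPKM in controls and 32.7, 42.3 and 35.8 in silenced libraries. Control replicate 3 lay above silenced replicate 1, so the groups overlap. The log2 change was 0.57 (SE 0.21, adjusted p = 0.203), and the exact permutation test gave p = 0.2. KDELR1 had 16.5, 16.1 and 26.7 and then 19.9, 29.7 and 30.1 (log2 0.43, adjusted p = 0.326). KDELR3 had 0.595, 0.657 and 1.32 and then 1.05, 1.45 and 1.58 (log2 0.48, adjusted p = 0.334). Control replicate 3 was the highest control in each of the 3. Without it KDELR2 had a change of 0.82 (adjusted p = 0.0316) and ARF5 of 0.50 (adjusted p = 0.0472), and these 2 of 37 members were then called, against 7.22% of all genes. Without control replicate 2, the lowest control, the change of KDELR2 was 0.33. Control replicate 3 was the highest of its group in 25 of 37 members, against 55.1% of all genes.

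**Figure D4:**
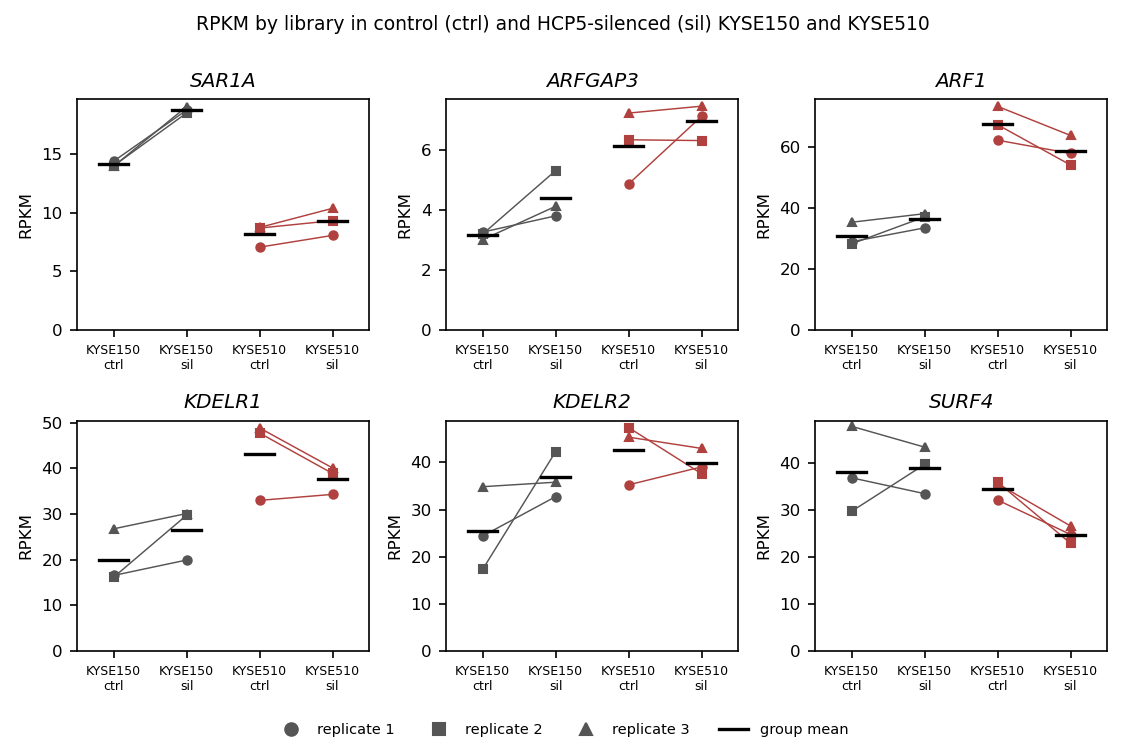
RPKM (y axis, from 0) of 6 coat genes in each library of control (ctrl) and silenced (sil) KYSE150 and KYSE510 cells; symbols give the replicate number, thin lines join the same number and bars are group means. SAR1A sets do not overlap in KYSE150 and SURF4 sets do not overlap in KYSE510.

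The same comparison in KYSE510 gave 0 members called in limma, against 0.0393% of all genes, and 2 with an unadjusted p under 0.05, SURF4 and COPA, both negative. Of the 17823 genes tested, 1132 had an unadjusted p under 0.05. The voom fit called 0 members and so did the limma fit with the replicate block, against 0.112% of all genes. Voom with the block called 1, SURF4, against 2.14%. Only 4 of 37 members had a positive change (COPB1, ARFGAP3, SAR1A and ERGIC2), against 43.0% of all genes, and the median was -0.08 (all genes -0.02). With median centring 7 were positive, against 50.7%. The 4 role groups had medians from -0.05 in coatomer to -0.11 in ARF genes and regulators. Silenced values lay entirely below the controls in 6 members (16.2%), against 6.87% of all genes: COPA, COPB2, COPZ1, SEC13, ERGIC3 and SURF4. They lay entirely above in 0, against 5.22%. In 20 members (54.1%) the silenced library was lower in all 3 pairs, against 21.8% of all genes.

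SURF4 (chr9:133361449-133376166, minus strand, GRCh38) encodes a receptor that exports soluble secretory proteins from the ER. KYSE510 controls had 32.1, 36.0 and 35.7 RPKM. The silenced libraries had 24.8, 22.9 and 26.6, a mean at 71.7% of that of the controls. The sets do not overlap. The log2 change was -0.47 (95% interval -0.81 to -0.14), with an adjusted p of 0.528 in limma, 0.184 with the block and an exact permutation p = 0.1. In KYSE150 SURF4 had 36.9, 29.8 and 47.9 and then 33.5, 39.8 and 43.4, with a change of 0.05 (adjusted p = 0.917), which was -0.08 with median centring.

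COPA had 29.5, 32.8 and 31.7 RPKM in KYSE510 controls and 28.0, 28.0 and 27.9 in silenced libraries. The silenced values lie just below the lowest control, with a log2 change of -0.16 (SE 0.06, adjusted p = 0.699). ARF1 had 62.3, 67.4 and 73.4 and then 58.0, 54.2 and 63.9, with overlap (log2 -0.21, SE 0.10, adjusted p = 0.851). ERGIC3 had 21.8, 23.2 and 25.0 and then 20.47, 19.8 and 21.7, without overlap (log2 -0.17, SE 0.09, adjusted p = 0.853). ERGIC2 was the member of positive change with the lowest p, at 7.003 ± 0.387 and 7.79 ± 0.528 (log2 0.14, SE 0.08, adjusted p = 0.858). Control replicate 1 was the lowest control in 30 of 37 members, against 58.3% of all genes, and silenced replicate 3 the highest silenced library in 27, against 39.2%.

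Paralog shares, a gene's RPKM over the summed RPKM of its pair in a library, were also set side by side. SAR1B, the SAR1 paralog tied to chylomicron export in gut, made up 18.1, 19.0 and 17.7% of the pair in KYSE510 controls and 15.8, 14.0 and 13.7% in silenced libraries, without overlap. In KYSE150 its share was 15.0 ± 1.85% and 14.2 ± 1.04%. SEC24D took 10.2 ± 1.27% of the SEC24C and SEC24D pair in KYSE510 controls and 8.76 ± 0.622% in silenced libraries, and 6.65 ± 0.465% and 8.29 ± 1.55% in KYSE150. Shares of SEC23A, near 26% of its pair with SEC23B (22.1% to 30.4% over the 12 libraries), differed little between groups. COPG2 held 11.8 ± 2.17% of the gamma pair in KYSE150 controls and 6.66 ± 0.554% in KYSE510 controls, and 13.2 ± 3.01% and 6.45 ± 0.732% after silencing. These shares are described without a test.

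The third comparison asked whether the change on silencing differed between the lines. The change was positive in KYSE150 and negative in KYSE510 for 29 of 37 members, positive in both for 4 and negative in both for 4. Over all genes, 66.1% had a positive change in KYSE150 and 43.0% in KYSE510. With median centring these shares were 41.1% and 50.7%, and 22 and 7 members were positive, so the split depended on the scaling. A test of the difference itself, KYSE510 change minus KYSE150 change, called 0 members and 0% of all genes in limma, and 0 with the replicate block. The difference had an unadjusted p under 0.05 for 10 of 37 members, all negative, and for 2181 of the 17823 genes tested. With median centring this held for 4 members and 2017 genes. Voom without the block also called 0 members. Voom with the block called 6 (ARF1, KDELR1, SEC24D, SAR1B, ERGIC1 and SURF4), against 6.68% of all genes. The 3 members of lowest p were ARF1 (-0.44, SE 0.15), COPZ1 (-0.34, SE 0.11) and SEC24D (-0.55, SE 0.19), each with an adjusted p of 0.394. With median centring ARF1 had -0.28 and COPZ1 -0.18. The difference was negative in 35 of 37 members and positive in 2 (5.41%), against 33.0% of all genes positive. Its median was -0.24, against -0.12 for all genes. Median centring shifted the median of all genes by 0.16. The difference was then negative in 28 members and positive in 9 (24.3%), against 55.8% of all genes positive. Its median was -0.08 (all genes 0.04).

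The wider early secretory list held a gene that changed in both lines. TMED10 (chr14:75131470-75176631, minus strand, GRCh38) encodes a p24 family cargo receptor that binds both coats. Earlier results of these data had already named it, so it is given as a value beside the coats and not as support. Its RPKM was 19.0, 17.8 and 18.8 in KYSE150 controls and 8.62, 8.23 and 9.39 in silenced libraries, and 29.2, 33.0 and 32.8 and then 15.1, 15.8 and 16.5 in KYSE510. The log2 changes were -1.04 (SE 0.08, adjusted p = 0.0002) and -0.98 (SE 0.08, adjusted p = 0.0009), with groups far apart in both lines. None of the 37 coat genes had a change of this size: their KYSE150 changes lay between -0.08 and 0.57, and those of KYSE510 between -0.47 and 0.18.

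TMED10 was the single related gene of 55 called in each line (1.82%), against 0.499% of all genes in KYSE150 and 0.0393% in KYSE510. In KYSE150, 44 of 55 had a positive change, against 66.1% of all genes, with a median of 0.18, and 31 with median centring, against 41.1%. In KYSE510 it was 16 of 55, against 43.0%, with a median of -0.05, and 21 with median centring, against 50.7%. With the replicate block 7 of 55 (12.7%) were called in KYSE150, against 6.70% of all genes, TMED10 and 6 with a positive change. These 6 were CNIH1, an ER export adaptor (log2 0.79), TFG, which organises ER exit sites (0.68), the GTPase ARF6 (0.61), YIF1A (0.49), RAB1B, a GTPase of ER to Golgi traffic (0.42), and ARFGEF2, an ARF exchange factor (0.26). Of the 9 TMED genes, 8 had a positive change in KYSE150 (4 with centring), against 66.1% of all genes (41.1% with centring). In KYSE510 it was 1, against 43.0%.

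Some members share exon sequence with other gene models in the table, which limits how well their reads can be assigned. For ARF5, 410 bases (21.9% of its exon length) are shared with GCC1 on the opposite strand and 297 (15.9%) with FSCN3 on the same strand. COPE shares 264 bases with AC002985.3 and COPB1 407 bases with RP11-140L24.4 on the same strand. KDELR2 shares 376 bases with DAGLB, and ARFGAP3 155 with PACSIN2. SEC24A and SAR1B, neighbours on chromosome 5, share 385 bases on opposite strands. GENCODE release 29 names 4 pseudogenes each of SAR1A and ARF4 and 3 of ARF1. None of those of SAR1A was in the table, so any reads from them were not counted apart.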

How the data were processed

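Per the submitters' processing notes, reads were processed with HISAT2 and DESeq on GRCh38. Versions, annotation release, strand use and filters are not given in the sources used here. The authors deposited RPKM for 38516 genes in 12 libraries, with exon positions in the form featureCounts writes. Multiplied by exon length and by the library's assigned reads, RPKM gave a whole number of reads for 100% of values (tolerance 0.1 read), and the totals matched in 12 of 12 libraries. The scaling was therefore by exon length and by gene-assigned reads alone. A change in a few abundant genes thus moves all others.

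RPKM were used as deposited, on the log2(RPKM + 0.5) scale, which understates changes of low genes. limma 3.58.1 in R 4.3.3 fitted 4 group means to all 12 libraries (8 residual degrees of freedom), for the 17823 genes with at least 0.5 RPKM in at least 3 libraries. P-values are two-sided, adjusted by Benjamini-Hochberg over those genes, with a threshold of 0.05. The fit was run on simulated data whose changes were larger than those of the coat genes on silencing. That run does not show how well changes of the members' size are detected. The exact permutation test of 3 against 3 libraries cannot go below 0.1.

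The titles give control and silenced libraries the same replicate numbers. Deviations from group means correlated at 0.147 to 0.415 in all 6 same-numbered pairs and at -0.385 to 0.184 otherwise. Same-numbered libraries of a line were treated as pairs only in the fits with the replicate block and in counts over pairs. The main limma fit, voom without the block and the permutation test did not use the pairing. With the replicate block, 4 residual degrees of freedom remain.

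The members, lists and tests were chosen with earlier results of these data known. By rule, statistics are given for members past the threshold with or without the block, filled up to 5 by lowest p in each silencing contrast, for 3 in the difference between lines, and for the 6 largest differences each way between control lines. Statistics of other members, such as KDELR1 and KDELR3 in KYSE150 and SEC13 and MCFD2 between control lines, were added outside that rule. Groups came from the labels, replicate numbers from the titles. Alternatives were the pseudocount, the filter, median centring, quantile normalization, limma-voom on recovered reads, the block, and leaving out each library. Promoter sequences are those of RefSeq on GRCh38.p14, matched by symbol.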

Additional observations from a re-analysis of the deposited data

How the results depend on the processing

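Calls on silencing depended on the pairing of libraries. In KYSE150 the count of members called rose from 0 to 1 with the replicate block (SAR1A) and to 12 with voom and the block. Leaving out 1 library each gave 0 to 2, the 2 being KDELR2 and ARF5 without control replicate 3. In KYSE510 it rose from 0 to 1 with voom and the block. On average over lines it was 1 with the block, 1 with the block and median centring (chosen after seeing the data) and 2 with voom and the block. The difference between lines had 6 calls with voom and the block. The block changed no other call. Positive changes in KYSE510 numbered 7 of 37 with median centring, 7 with quantile normalization, 7 with centring and the block, and 4 to 8 with 1 library left out, against 4. The causes were not tested. The 25 members differing between control lines stayed between 24 and 28 under every alternative run. That contrast lies between blocks and had no blocked fit. Fits restricted to the groups compared were not possible for the average and the difference. The members given statistics by rule kept the direction of those changes in these fits. SURF4 in KYSE150, named beside them, did not (0.05, and -0.08 with median centring). With 3 libraries a group, changes as small as those of most members could not be told from the spread.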
